A study of Mus musculus with 5 samples.

Results

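The Krüppel-like factor genes Klf2, Klf3, Klf4, Klf5, Klf6, Klf7, Klf9, Klf10, Klf11 and Klf13 were taken as a named list of the family, of which Klf2, Klf4 and Klf6 are known targets of MEF2 factors in other tissues. The list does not hold every Klf gene measured, since Klf8 and Klf16 were tested too and are given with the other KLF and SP genes. All 10 were among the 12934 genes listed in the count table, and all 10 passed the expression filter that left 12483 genes for testing. The study compared EpH4 cells, a spontaneously immortalized mouse mammary epithelial line, with and without CRISPR targeting of Mef2d, which encodes the transcription factor MEF2D. Cells of each group carried a lentiviral Cas9 selected with blasticidin and a lentiviral single-guide RNA selected with puromycin, either a control guide (sgControl, 3 libraries) or a guide against Mef2d (sgMef2d, 2 libraries), and all grew in DMEM with serum. Poly(A) RNA was sequenced from strand-marked libraries. The labels and methods do not say whether the libraries came from separate cultures or clones, or whether both sgMef2d libraries carry the same guide, so the p-values measure the spread between these libraries, which may be technical.

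Krüppel-like factors are transcription factors that bind CACCC and GC-rich boxes through C2H2 zinc fingers at their carboxy terminus. Klf2, Klf4, Klf5, Klf6 and Klf7 act mostly as activators, Klf3 is a repressor that recruits CtBP, and Klf9, Klf10, Klf11 and Klf13 recruit the SIN3A corepressor. In epithelia Klf4 is linked to differentiation and cell cycle exit and Klf5 to basal progenitors and proliferation. In endothelium the kinase ERK5 acts through MEF2 proteins on Klf2 and Klf4.

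The coding sequence of the zinc fingers is shown for Klf5 and Klf6, the members that passed the threshold in opposite directions, because the fingers are what the family shares. Each stretch is 243 bases of spliced coding sequence from GENCODE M21 transcripts on GRCm38, 5′ to 3′, and capitals mark the codons of the zinc-binding cysteines and histidines. The Klf5 stretch lies in exons 2 to 4 of 4, between positions 99302242 and 99313320 of chromosome 14 on the plus strand. The Klf6 stretch lies in exons 2 to 4 of 4, between positions 5865272 and 5867277 of chromosome 13 on the plus strand.
Klf5: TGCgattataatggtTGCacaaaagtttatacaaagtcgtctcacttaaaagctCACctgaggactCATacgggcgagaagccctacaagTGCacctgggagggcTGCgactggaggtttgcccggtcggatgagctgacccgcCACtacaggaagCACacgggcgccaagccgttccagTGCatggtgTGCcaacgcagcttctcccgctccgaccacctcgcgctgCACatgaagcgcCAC
Klf6: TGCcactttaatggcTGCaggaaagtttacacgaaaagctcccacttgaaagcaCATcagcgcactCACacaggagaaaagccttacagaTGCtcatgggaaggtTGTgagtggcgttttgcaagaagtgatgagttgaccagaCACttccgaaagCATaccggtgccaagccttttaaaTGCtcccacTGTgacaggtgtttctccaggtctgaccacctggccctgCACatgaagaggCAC

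Every one of the 10 encoded proteins held 3 such fingers in a block of 81 residues. The blocks of Klf5 and Klf6 were identical at 84.0% of the residues. Over the 45 pairs of members the identity ran from 60.5% for Klf6 and Klf9 to 95.1% for Klf6 and Klf7, with a median of 69.1%. The pair Klf2 and Klf4 shared 91.4%, Klf10 and Klf11 86.4%, and Klf9 and Klf13 81.5%. The block ended 1 to 3 residues before the end of the protein in Klf2 to Klf7 and 19 to 39 residues before it in Klf9, Klf10, Klf11 and Klf13. At the level of whole transcripts the members were distinct, since no 50-base word was shared between any pair of them.

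**Figure D1:**
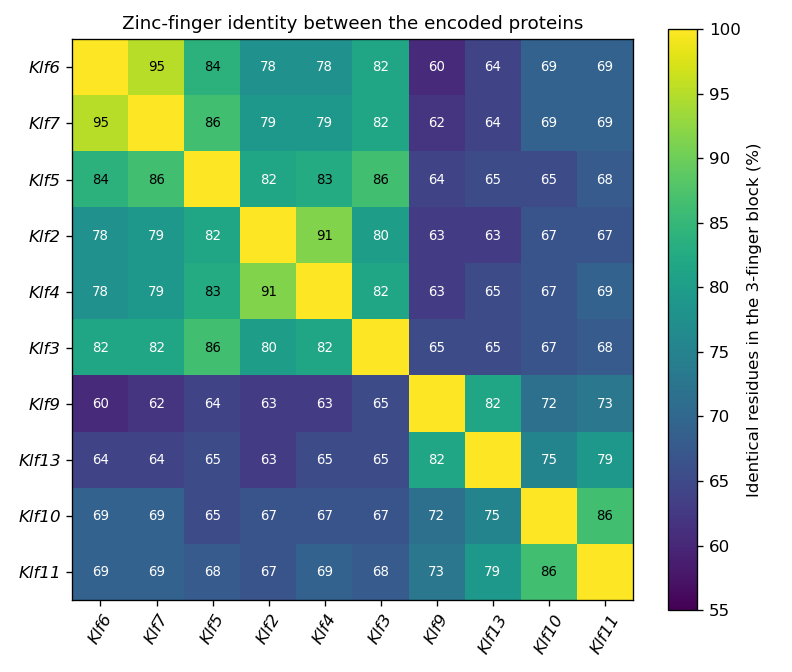
Percentage of identical residues in the 3-finger block for each pair of members, with colour and number giving the same value. Klf6 and Klf7 are the most alike at 95.1%, and Klf9, Klf10, Klf11 and Klf13 form the more distant corner, with a lowest value of 60.5% for Klf6 and Klf9.

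The bases just upstream of the start site are shown for Klf2, Klf4 and Klf6, the members known as MEF2 targets, so that the presence or absence of a MEF2 motif can be read directly. They come from RefSeq on GRCm38.p6, in the sense of the gene, and end before the first annotated base in GENCODE M21. The windows are chr8:72318812-72319032 on the plus strand for Klf2, chr4:55532476-55532725 on the minus strand for Klf4 and chr13:5861239-5861481 on the plus strand for Klf6. Capitals mark matches to the MEF2 consensus or to CACCC on either strand, and the Klf4 and Klf6 windows hold none.
Klf2 promoter: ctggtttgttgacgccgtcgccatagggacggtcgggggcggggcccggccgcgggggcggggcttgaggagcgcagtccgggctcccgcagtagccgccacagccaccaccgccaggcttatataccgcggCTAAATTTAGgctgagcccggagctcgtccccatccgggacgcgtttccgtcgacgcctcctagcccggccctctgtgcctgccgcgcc
Klf4 promoter: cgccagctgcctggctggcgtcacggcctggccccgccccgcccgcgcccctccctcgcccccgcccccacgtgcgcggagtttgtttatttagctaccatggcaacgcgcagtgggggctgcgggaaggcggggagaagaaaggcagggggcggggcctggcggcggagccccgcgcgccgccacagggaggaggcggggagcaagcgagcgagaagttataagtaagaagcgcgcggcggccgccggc
Klf6 promoter: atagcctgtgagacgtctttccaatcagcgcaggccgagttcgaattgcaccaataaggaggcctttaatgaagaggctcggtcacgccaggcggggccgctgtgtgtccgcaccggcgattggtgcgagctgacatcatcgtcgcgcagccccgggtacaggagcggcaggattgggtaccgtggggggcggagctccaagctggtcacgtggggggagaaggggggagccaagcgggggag

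RefSeq promoters were matched for 8 of the 10 members, the exceptions being Klf5 and Klf10. In the 250 bases upstream of the RefSeq start, a match to the 10-base MEF2 consensus stood in 1 of 8, Klf2, where the palindrome CTAAATTTAG lay at chr8:72318944-72318953, 109 to 118 bases before the start. Such a match was held by 2.92% of the 32851 promoters in the table. CACCC on either strand stood in 5 of the 8, against 52.0% of all promoters, and GGGCGG on either strand in 7 of the 8, against 32.7%. Matches were counted separately for each motif and may overlap. The window of Klf7 lies within the gene as annotated in GENCODE M21. Those of Klf2, Klf3, Klf6 and Klf11 run past its first annotated base, so the counts include some transcribed sequence. The CACCC match of Klf2 lies in the bases left out of the printed window. The members' windows were GC-rich, from 59.2% for Klf7 to 78.4% for Klf3, beside a median of 52.4% over all promoters. A match is a description of the letters and no measure of binding.

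Depth ran from 13601145 to 20498563 counts per library, and the TMM scaling factors were near 1. Levels are given as CPM, the count of a gene over a common library size after TMM scaling. A count of 3, taken as the detection limit, was worth 0.146 to 0.221 CPM. Mef2d itself, the targeted gene, was at 64.3, 76.9 and 71.5 CPM in sgControl and at 64.2 and 65.8 CPM in sgMef2d, a log2 fold change of -0.12 (SE 0.08, adjusted p = 0.400 by edgeR's quasi-likelihood test), and without sgControl replicate 1, where 29.4% of all genes tested passed, the adjusted p was 0.00550. Counts of a whole gene do not read the edited site. At the protein level, the paper reported by immunoblot that MEF2D was absent from its knockout cells. Of 10 mammary epithelial markers 9 were listed and summed to 4389 to 4587 CPM in sgControl and 4613 to 4840 CPM in sgMef2d. Of these 9, the basal keratin genes Krt5 (at most 0.146 CPM in sgControl, 15.3 and 14.2 CPM in sgMef2d) and Krt14 (435.5 to 442.5 CPM against 874.6 and 929.1 CPM) rose, the luminal keratin gene Krt18 fell (683.7 to 723.9 CPM against 580.0 and 602.1 CPM, edgeR adjusted p = 0.0207), and the other 6 did not pass. Fibroblast markers (5 of 7 listed) summed to 161 to 238 CPM in sgControl and 240.1 to 272.5 CPM in sgMef2d. Col3a1 (1.63 to 2.13 CPM against 5.36 and 4.71 CPM) and Dcn (0.922 to 1.90 CPM against 3.47 and 3.30 CPM) were higher past the threshold. Pdgfra was lower without passing (31.4 to 35.2 CPM against 27.3 and 29.6 CPM, edgeR adjusted p = 0.106). Fbln1, too scarce to be tested, had means of 0.578 and 0.248 CPM. Most of the sum was Col1a1 (125.3 to 198.9 CPM against 203.7 and 234.7 CPM), which did not pass (edgeR adjusted p = 0.135). Leukocyte markers (2 of 7 listed) summed to 2.58 to 3.40 CPM and 3.84 to 3.94 CPM, and none of 7 endothelial markers was listed. The part of these markers in the results for the Klf genes was not tested, and in bulk RNA fewer cells of a type and less RNA per cell cannot be told apart.

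Per kilobase of annotated exon, Klf6, an activator known from wound and growth responses, had the highest level of the family in sgControl, at 38.7 CPM per kb, and Klf11 the lowest, at 0.704 CPM per kb. Between them stood Klf10 at 14.8, Klf4 at 12, Klf7 at 11.02, Klf13 at 7.63, Klf3 at 7.49, Klf9 at 7.43, Klf5 at 6.85 and Klf2 at 1.63 CPM per kb. Outside the list, Klf16 was at 17.9 and Klf8 at 1.32 CPM per kb in sgControl. The neighbours Klf4 and Klf7, Klf13 and Klf3, Klf3 and Klf9, and Klf9 and Klf5 had overlapping values in the 3 sgControl libraries, so their order is not set by these data. With the longest annotated transcript as the length, Klf3 moved to 16.1 CPM per kb, the third place among the members. Its exons together span 11243 bases and its longest transcript 5221.

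**Figure D2:**
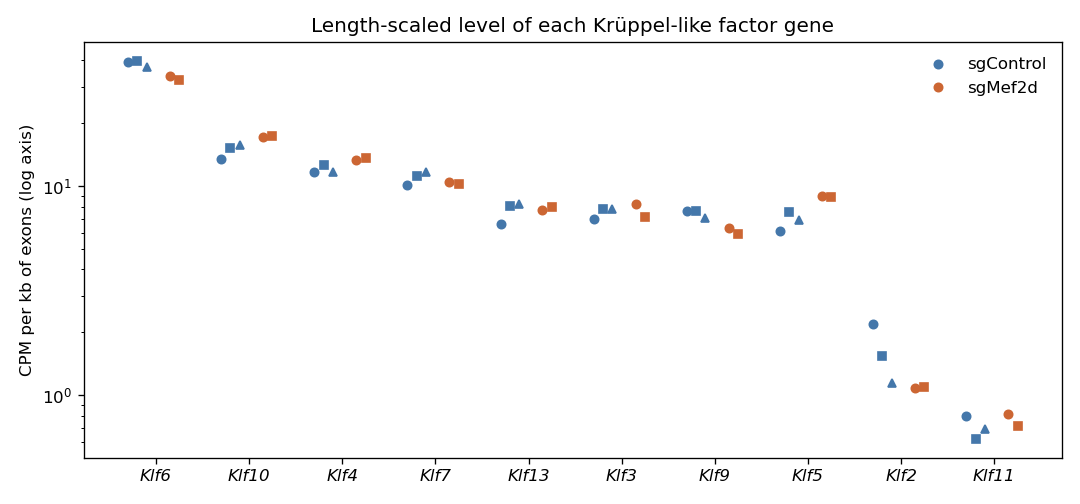
CPM per kilobase of exon on a log axis for each member, ordered by the sgControl mean, with blue points for the 3 sgControl and orange points for the 2 sgMef2d libraries (circle, square and triangle for replicates 1, 2 and 3). Klf6 stands highest, at a mean of 38.7 in sgControl and 33.0 in sgMef2d, and Klf2 and Klf11 lie below 3.

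The question asked of these genes was whether their RNA differed between sgMef2d and sgControl cells. Klf5 rose and Klf6 fell, and the other members did not pass the threshold of an adjusted p below 0.05. These 2 of 10 stand beside 7.95% of all genes tested, with 1 member higher beside 3.67% and 1 lower beside 4.28%. At an unadjusted p below 0.05 the count was 5 of 10 members, beside 23.2% of all genes. In 6 of 10 members, Klf2, Klf4, Klf5, Klf6, Klf9 and Klf10, the sgMef2d values lay wholly outside the sgControl values, beside 41.1% of all genes tested. The median log2 fold change of the members was 0.04 and their median absolute change 0.20, beside 0.00311 and 0.12 over all genes, and the median was -0.03 without sgControl replicate 1 and -0.04 without sgMef2d replicate 1. No test was made over the family.

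**Figure D3:**
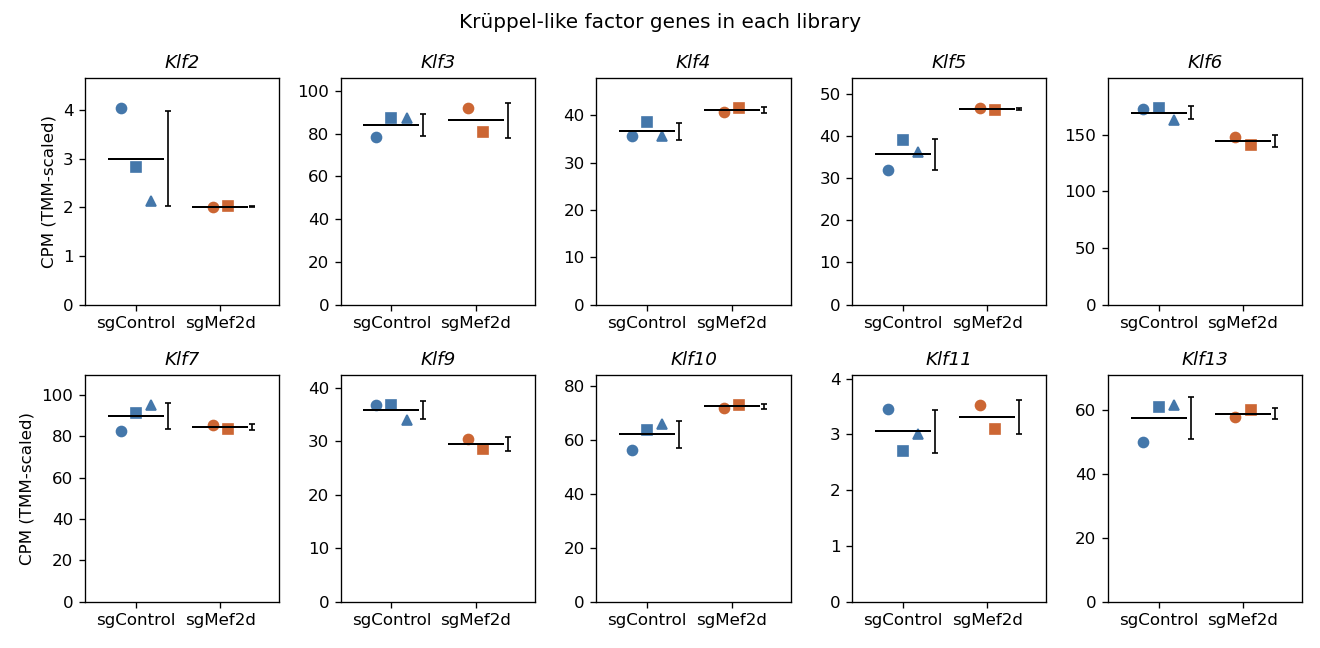
TMM-scaled CPM of each member in each library (blue sgControl, orange sgMef2d, with circle, square and triangle for replicates 1, 2 and 3), with a line at the group mean, a bar of the mean ± 1 SD and each axis starting at 0. The 2 sgMef2d libraries lie above all sgControl libraries for Klf4, Klf5 and Klf10 and below them for Klf2, Klf6 and Klf9.

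Klf5 (ENSMUSG00000005148, chromosome 14, 99298691 to 99315036, plus strand) encodes an activator of proliferation in basal and progenitor epithelium. It was at 31.8, 39.1 and 36.1 CPM in sgControl replicates 1, 2 and 3 and at 46.6 and 46.2 CPM in sgMef2d replicates 1 and 2. Both sgMef2d values lay above every sgControl value, and they differed from each other by far less than the sgControl values did. Klf5 thus rose by 30.2%, with means of 46.4 ± 0.293 CPM in sgMef2d (SD, n = 2) against 35.6 ± 3.66 CPM for sgControl (SD, n = 3) and a log2 fold change of 0.39 (SE 0.09, 95% interval 0.19 to 0.58, adjusted p = 0.0227 by edgeR's quasi-likelihood test). The call was lost when either sgMef2d library was left out (adjusted p = 0.192 without replicate 1 and 0.196 without replicate 2), with the log2 fold change at 0.37 and 0.39. Of the 14 alternatives 12 kept Klf5 past the threshold, with adjusted p from 3.175e-04 to 0.196.

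Klf6 (ENSMUSG00000000078, chromosome 13, 5861482 to 5870394, plus strand) was at 172.7, 173.9 and 162.8 CPM in sgControl and at 148.5 and 140.9 CPM in sgMef2d. The groups did not overlap, and the lowest sgControl library exceeded the higher sgMef2d library. From a sgControl mean of 169.8 ± 6.12 CPM (SD, n = 3) to a sgMef2d mean of 144.7 ± 5.33 CPM (SD, n = 2) the level fell by 14.8%, with a log2 fold change of -0.23 (SE 0.06, 95% interval -0.36 to -0.10, edgeR adjusted p = 0.0391). The adjusted p was 0.155 without sgControl replicate 2, 0.192 without sgMef2d replicate 1 and 0.409 without sgMef2d replicate 2, and lay between 4.008e-05 and 0.409 over the 14 alternatives, of which 11 kept the call.

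Klf2 and Klf4, the pair tied to ERK5 and MEF2 in endothelium, differed in sign. Klf2 (ENSMUSG00000055148, chromosome 8, 72319033 to 72321656, plus strand), the member with the MEF2 consensus in its promoter, was at 4.05, 2.84 and 2.13 CPM in sgControl and at 2.001 and 2.02 CPM in sgMef2d, from 83, 40, 29, 34 and 30 counts. The sgMef2d values lay just below the lowest sgControl value, and sgControl replicate 1 stood high, with the highest sgControl value 1.90 times the lowest. The log2 fold change was -0.63 (SE 0.29, 95% interval -1.28 to 0.00716, edgeR adjusted p = 0.220), without sgControl replicate 1 it was -0.31 (adjusted p = 0.492), and without sgControl replicate 3 it was -0.81 (adjusted p = 0.0963). With the replicate number as a block, which the labels do not show to pair the libraries, it was -0.79 (adjusted p = 0.0355).

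Klf4 (ENSMUSG00000003032, chromosome 4, 55527143 to 55532466, minus strand), a barrier and differentiation factor, was at 35.6, 38.7 and 35.6 CPM in sgControl and at 40.7 and 41.6 CPM in sgMef2d. The sgMef2d values were the higher without overlap, but the difference of the means, 36.6 ± 1.78 against 41.1 ± 0.624 CPM (SD, n = 3 and 2), was small. The log2 fold change was 0.17 (SE 0.07, 95% interval 0.00458 to 0.33) and edgeR's adjusted p was 0.203, and it stayed between 0.123 and 0.651 over the alternatives. Klf7 (ENSMUSG00000025959), a factor of neuronal and progenitor cells and the closest relative of Klf6 by its fingers, was at 82.6, 91.1 and 95.1 CPM in sgControl and at 85.6 and 83.2 CPM in sgMef2d. The groups overlapped, with a log2 fold change of -0.08 (95% interval -0.24 to 0.07, edgeR adjusted p = 0.531). Without sgControl replicate 1, where 29.4% of all genes tested passed, it was -0.14 (adjusted p = 0.0287). Without sgControl replicate 3 it was -0.04 (adjusted p = 0.831).

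Klf3 (ENSMUSG00000029178), the CtBP-recruiting repressor, was at 78.3, 87.1 and 87.2 CPM in sgControl and at 92.0 and 80.5 CPM in sgMef2d. The 2 sgMef2d libraries stood on either side of the sgControl libraries 2 and 3, and the log2 fold change of 0.04 (95% interval -0.13 to 0.21, edgeR adjusted p = 0.816) changed sign without sgControl replicate 1 or sgMef2d replicate 1. Klf3 shares 404 exon bases with Gm20033 on the opposite strand, and Klf7 shares 3196 with Gm26649, also opposite. Both partners had low counts, 11 to 30 and 14 to 36, and the strand setting of the counting is not given in the sources used here.

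Among the SIN3A-recruiting members, Klf9, a factor induced by glucocorticoid and thyroid hormone, and Klf10, a gene induced early by TGF-beta, had fold changes of opposite sign, and neither passed the threshold. Klf9 (ENSMUSG00000033863, chromosome 19) was at 36.8, 36.7 and 33.9 CPM in sgControl and at 30.4 and 28.5 CPM in sgMef2d, without overlap. Its log2 fold change was -0.28 (SE 0.08, 95% interval -0.46 to -0.10, edgeR adjusted p = 0.0565). Without sgControl replicate 1, where 29.4% of all genes tested passed, Klf9 passed the threshold (adjusted p = 0.00773). Klf10 (ENSMUSG00000037465, chromosome 15) was at 56.3, 63.7 and 65.9 CPM in sgControl and at 71.7 and 72.9 CPM in sgMef2d, again without overlap. Its log2 fold change was 0.23 (SE 0.08, 95% interval 0.06 to 0.39, edgeR adjusted p = 0.0998). In the same fit without sgControl replicate 1 the adjusted p of Klf10 was 0.0259.

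Klf11, the closest relative of Klf10 by its fingers, was scarce. Klf11 (ENSMUSG00000020653, chromosome 12) was at 3.46, 2.70 and 3.01 CPM in sgControl and at 3.53 and 3.10 CPM in sgMef2d, from 38 to 71 counts, and the groups overlapped (log2 fold change 0.10, 95% interval -0.35 to 0.55, edgeR adjusted p = 0.818). Differences within that interval are beyond what these libraries resolve. Klf13 (ENSMUSG00000052040, chromosome 7), the closest relative of Klf9 and a regulator in lymphocytes and heart, was at 49.98, 60.8 and 61.6 CPM in sgControl and at 57.7 and 60.1 CPM in sgMef2d. Both sgMef2d values fell between the lowest and the highest sgControl value, with a log2 fold change of 0.04 (95% interval -0.16 to 0.24, edgeR adjusted p = 0.840).

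The sgControl libraries differed among themselves in these genes. On the log2 scale, sgControl replicate 1 differed from the mean of replicates 2 and 3 by 0.72 for Klf2, -0.29 for Klf13, 0.28 for Klf11, -0.24 for Klf5, -0.20 for Klf10, -0.17 for Klf7 and -0.15 for Klf3, while the median absolute difference over all genes was 0.14. For Klf4, Klf6 and Klf9 it differed by 0.06 or less in size.

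**Figure D4:**
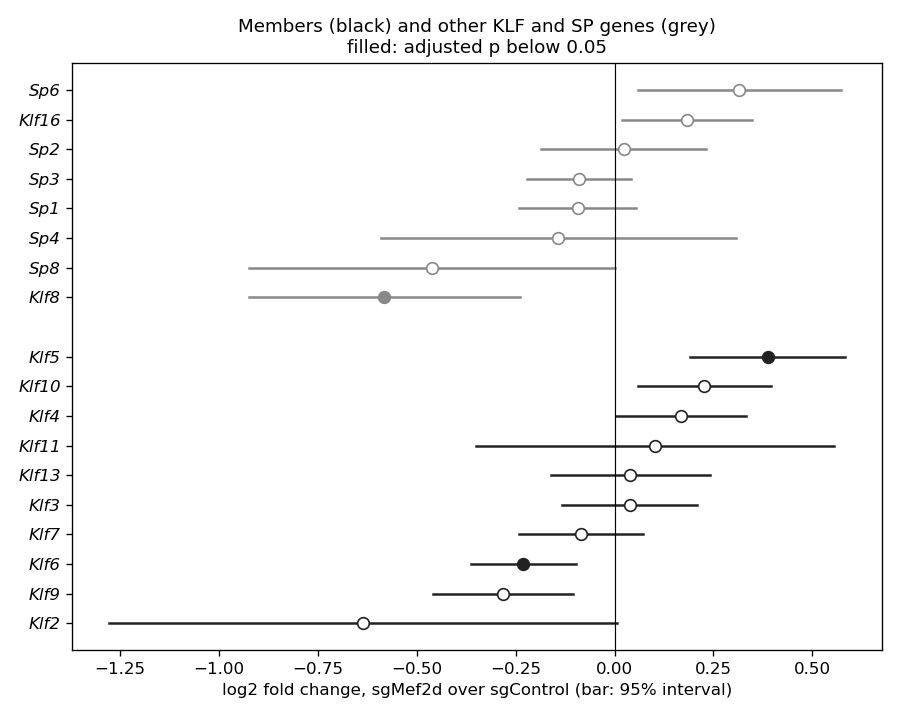
Log2 fold change of sgMef2d over sgControl with its 95% interval for the 10 members (black) and the 8 other KLF and SP genes tested (grey), with filled points for an adjusted p below 0.05. Klf5 at 0.39, Klf6 at -0.23 and Klf8 at -0.58 are filled, and Klf2 at -0.63 has the widest interval of the members.

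The summed level of the members overlapped between the groups, at 105, 111.9 and 107.9 CPM per kb in sgControl and 107.9 and 105.1 CPM per kb in sgMef2d. Klf6 made up 37.5%, 35.4% and 34.3% of it in sgControl and 31.3% and 30.5% in sgMef2d. The share of Klf5 was 5.82%, 6.72% and 6.42% in sgControl and 8.31% and 8.45% in sgMef2d, and that of Klf10 went from a mean of 13.7% to 16.3%. Shares of 6 members did not overlap between the groups, higher in sgMef2d for Klf4, Klf5 and Klf10 and lower for Klf2, Klf6 and Klf9, which are the members whose CPM did not overlap. Of these 6 only Klf5 and Klf6 passed the test on their own counts, and CPM did not overlap in 41.1% of all genes tested. The mostly activating members together took 66.18%, 64.85% and 63.47% in sgControl and 62.77% and 62.72% in sgMef2d. The SIN3A-recruiting members took 27.18%, 28.22% and 29.35% in sgControl and 29.64% and 30.47% in sgMef2d. Both shares varied among the sgControl libraries at least as much as between the group means. Shares of a sum are tied to each other, and they were not tested.

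**Figure D5:**
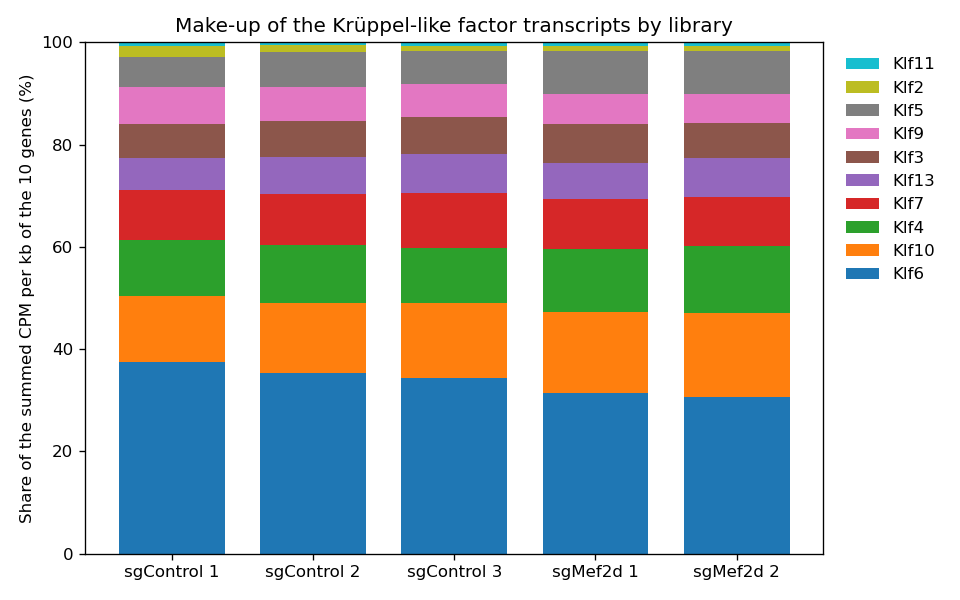
Stacked shares, in percent, of the summed CPM per kilobase of the 10 members in each library, from Klf6 at the base to Klf11 at the top. The Klf6 band is 34.3% to 37.5% in the sgControl libraries and 31.3% and 30.5% in the sgMef2d libraries, and the Klf5 band is thicker in sgMef2d, at 8.31% and 8.45%.

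Of 16 other genes of the KLF and SP family, 8 were listed and tested and 1 passed the threshold, beside 7.95% of all genes. It was Klf8, a CtBP-recruiting repressor close to Klf3. Klf8 was at 6.49, 7.23 and 6.82 CPM in sgControl and at 4.83 and 4.24 CPM in sgMef2d, without overlap, and fell by 0.58 on the log2 scale (SE 0.16, edgeR adjusted p = 0.0438). The call did not hold with DESeq2 (adjusted p = 0.123), with limma-voom (0.0587), or without sgControl replicate 2 (0.127), sgControl replicate 3 (0.0774), sgMef2d replicate 1 (0.173) or sgMef2d replicate 2 (0.346). The log2 fold changes of the rest were 0.18 for Klf16, 0.32 for Sp6, 0.02 for Sp2, -0.09 for Sp1, -0.09 for Sp3, -0.14 for Sp4 and -0.46 for Sp8, with edgeR adjusted p from 0.131 to 0.916. Without sgMef2d replicate 1 the log2 fold change was -0.24 for Sp8 and 0.24 for Klf16, and without sgMef2d replicate 2 it was -0.70 and 0.12. Without sgControl replicate 1, Sp1 (adjusted p = 0.00536) and Klf16 (0.0312) passed, in the fit where 29.4% of all genes did. Klf1, Klf12, Klf14, Klf15, Klf17, Sp5, Sp7 and Sp9 were not analysed here.

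Cofactors carry out much of what the family does at promoters. None of 11 corepressor and coactivator genes, among them Ctbp1, Ctbp2, Sin3a, Sin3b, Ep300 and Crebbp, passed the threshold in edgeR, DESeq2 or limma-voom (0 of 11, beside 7.95% of all genes in edgeR), and 0 had an unadjusted p below 0.05 in edgeR, beside 23.2%. Their log2 fold changes ran from -0.12 for Kat2b to 0.09 for Ctbp1. Without sgControl replicate 1, 3 of the 11 passed, a share near the 29.4% of all genes in that fit.

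Upstream, in the arm that runs from the MEKK kinases over MEK5 and ERK5 to MEF2, 7 of 8 genes were tested and 1 passed, beside 7.95% of all genes, a count too small to set the list apart. Map3k2, which encodes the kinase MEKK2, was at 81.4, 91.6 and 95.6 CPM in sgControl and at 75.5 and 68.4 CPM in sgMef2d. It fell by 0.31 on the log2 scale (SE 0.08, edgeR adjusted p = 0.0372), and the adjusted p was 0.118 without sgControl replicate 2, 0.0925 without sgControl replicate 3, 0.121 without sgMef2d replicate 1 and 0.385 without sgMef2d replicate 2. The log2 fold changes of Map3k3 (0.13), Map2k5 for MEK5 (0.03), Mapk7 for ERK5 (0.10), Mef2a (-0.21) and Mef2c (-0.13) had edgeR adjusted p from 0.172 to 0.874. Without sgControl replicate 1, where 29.4% of all genes tested passed, the adjusted p of Mef2a was 2.769e-06.

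Of 7 ubiquitin ligases described for KLF proteins, all tested, 1 fell, Fbxo32, which encodes the F-box protein atrogin-1, beside 4.28% of all genes called lower, and 1 call among so few genes is no result about the list. It was at 6.58, 6.38 and 8.43 CPM in sgControl and at 4.18 and 4.24 CPM in sgMef2d, a log2 fold change of -0.75 (SE 0.18, edgeR adjusted p = 0.0258), and the adjusted p was 0.0546 without sgControl replicate 3, 0.194 without sgMef2d replicate 1 and 0.190 without sgMef2d replicate 2. Of the other 6, Itch came nearest, with a log2 fold change of -0.20 and an adjusted p of 0.0565, and without sgControl replicate 1 the count past the threshold was 4 of 7, beside 29.4% of all genes.

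Downstream, 13 of 16 genes described as KLF targets were tested and 2 rose, beside 3.67% of all genes that were called higher. Cdkn1a, which encodes the cell cycle inhibitor p21 and is described as a target of Klf4 and Klf6, was at 46.5, 46.6 and 44.3 CPM in sgControl and at 65.6 and 65.3 CPM in sgMef2d (log2 fold change 0.52, SE 0.07, edgeR adjusted p = 7.882e-04). Lgals3, which encodes galectin-3, was at 185.4, 181.8 and 163.4 CPM in sgControl and at 225.6 and 222.3 CPM in sgMef2d (log2 fold change 0.34, SE 0.07, edgeR adjusted p = 0.00853). Lgals3 lost its call without sgMef2d replicate 1 (adjusted p = 0.139) or replicate 2 (0.122). The median log2 fold change of the 13 was 0.11, beside 0.00311 over all genes, and the 11 others, among them Ccnd1 and Cdh1, did not pass. The count past the threshold was 6 of 13 without sgControl replicate 1, beside 29.4% of all genes. It was 1 without either sgMef2d library, beside 1.88% (replicate 1 left out) and 1.83% (replicate 2 left out).

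Several Klf genes respond quickly to serum and stress, and 12 immediate early genes were therefore set beside them. All 12 were tested, and 3 rose and 0 fell, beside 3.67% and 4.28% of all genes. Their median log2 fold change was 0.43, with 10 of 12 above 0, beside 0.00311 and 50.7% over all genes. The largest rises, those of Egr3, Egr2, Fos and Egr1, came from 16 to 125 counts per library, and none of them passed. The median rested on sgMef2d replicate 1 more than on replicate 2, since it was 0.16 with 8 of 12 above 0 without replicate 1 and 0.55 with 10 of 12 without replicate 2. Over the libraries left out in turn the count past the threshold ran from 1 (without sgControl replicate 2 or sgMef2d replicate 1, beside 4.84% and 1.88% of all genes) to 8 (without sgControl replicate 1, beside 29.4%). The 3 were Ier3 (147.8, 141.1 and 128.1 CPM in sgControl, 212.2 and 198.1 CPM in sgMef2d, edgeR adjusted p = 6.773e-04), Ier2 (61.1, 52.4 and 47.1 CPM against 84.0 and 67.8 CPM, 0.0199) and Junb (163.9, 165.7 and 153.0 CPM against 195.4 and 183.3 CPM, 0.0393). Junb no longer passed without sgControl replicate 2 (adjusted p = 0.0911), sgControl replicate 3 (0.117), sgMef2d replicate 1 (0.404) or sgMef2d replicate 2 (0.199), and Ier2 without sgControl replicate 2 (0.0564) or sgMef2d replicate 1 (0.295). The part of this group in the levels of the Klf genes was not tested.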

How the data were processed

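RNA of 3 sgControl and 2 sgMef2d libraries of EpH4 cells was analysed. The authors aligned the reads to GRCm38 with STAR2 after FASTQC, checked them with RSeQC and deposited raw counts per gene with low-count genes removed, and for the counting step the methods name a pre-rank tool, which is made for ranked gene lists, and the submitters' processing notes list Subread. The methods give GENCODE version 22, while 12934 of 12934 identifiers matched GENCODE M21, 12811 with the same version. Each listed gene reached at least 11 counts in a library, and 0 columns and 0 unnamed entries were left out. The libraries were grouped by their labels.

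The deposited counts were scaled with TMM factors in edgeR 4.0.16 (R 4.3.3) and tested with its bias-adjusted quasi-likelihood fit on the genes passing its default expression filter, with Benjamini-Hochberg adjustment over all 12483 genes and a threshold of 0.05. The standard error is the log2 fold change divided by the square root of the F statistic, and intervals cover 95%. The biological coefficient of variation was 0.0608. Levels between genes used the union of annotated exons. Depth of 13601145 to 20498563 counts limits mainly Klf2 and Klf11, and PCR copies were not identified. DESeq2 1.42.0 and limma 3.58.1 (voom) were among the alternatives, and the fit was tested on simulated data. The members and all gene lists were chosen with earlier results of these data known. All members, Mef2d, every tested KLF, SP and ERK5 to MEF2 gene, and the genes of the other lists past the threshold, markers included, are named. Kat2b, Ctbp1, Itch, Pdgfra, Fbln1, Col1a1, Egr1, Egr2, Egr3 and Fos were chosen after their values were seen. Other cofactor and target genes are named as examples without values. Sequence motifs were searched as exact letters on both strands, and promoter entries were not analysed here for Klf5 and Klf10.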

Additional observations from a re-analysis of the deposited data

How the results depend on the processing

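The 14 alternatives were other scalings, the legacy form of the test, DESeq2, limma-voom, no further filter or a minimum of 1 CPM in 2 libraries, a replicate block and leaving out each of the 5 libraries. Another scaling reversed 0 of the member fold changes. DESeq2 and limma-voom each called 2 members, beside 804 and 942 of all genes. Over all genes, the 992 calls became 2901 at an unadjusted p below 0.05 and 422 at an adjusted p below 0.01, and the 2 members became 5 and 0. Leaving out a library gave between 234 (without sgMef2d replicate 2) and 3639 calls (without sgControl replicate 1), the latter holding 985 of the 992, and between 0 members (without either sgMef2d library) and 5 (without sgControl replicate 1). A fit without one sgMef2d library assumes that the remaining library varies like sgControl. The cause of these shifts was not tested.

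With the replicate block 1254 genes passed, 10% of those tested, and 901 of them were among the 992. In that fit 5 members passed, Klf2 (adjusted p = 0.0355), Klf9 (0.0240) and Klf10 (0.0274) in addition, as did Sp6 (0.0448), and Junb did not (0.113). The labels give only numbers, and same-numbered libraries deviated together with r = 0.05 and 0.02 across 8045 genes, which does not show a pairing. Fold changes near 0 changed sign when a library was left out, over a log2 range of -0.067 to 0.126 for Klf3, -0.00436 to 0.22 for Klf11, -0.058 to 0.093 for Klf13, -0.031 to 0.073 for Sp2, -0.34 to 0.051 for Sp4, -0.014 to 0.086 for Map2k5 and -0.48 to 0.12 for Mef2c. Of the members' fold changes over all alternatives, 125 kept direction and side of the threshold, 6 newly passed, 5 no longer passed and 4 changed sign. With the longest transcript as the length, 6 of 10 levels and 1 of 10 shares moved by more than the spread of the libraries, and 7 shares instead of 6 did not overlap. Counts of 29 to 83 for Klf2 and 38 to 71 for Klf11 limit what can be seen there.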
